A study of Mus musculus with 17 samples.

Results

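The nuclear-encoded genes of oxidative phosphorylation were examined in hippocampal RNA-seq of mice that lacked or kept Acss2, the nucleocytosolic acetyl-CoA synthetase, and that had received tau or buffer. Members were chosen by symbol alone, as all genes whose names begin as the Ndufa, Ndufb, Ndufc, Ndufs, Ndufv, Sdh, Uqcr, Cox4 to Cox8 and Atp5 subunit families do. Of the 24498 genes counted, 84 met this rule, and they fell into complex I with 37 genes, complex II with 4, complex III with 8, complex IV with 18 and complex V with 17. A library is 1 deposited sample of dorsal hippocampus, cut with CA1, CA2, CA3 and the dentate gyrus, from a mouse that was 6 months old when injected into the right dorsal hippocampus. Per the paper, molecular work on the mice was done 6 months after the injection. The 17 libraries formed 6 groups of 3, except that female WT Tau had 2. The male groups were WT PBS, WT Tau, ACSS2KO PBS (KO PBS) and ACSS2KO Tau (KO Tau), and the female groups were WT Tau and KO Tau. Tau was purified from brain tissue of people with Alzheimer's disease (AD), PBS was the buffer control, and no PBS-injected female library was analysed here. WT and KO mice descended from separate homozygous crosses, so genotype and breeding line cannot be told apart. Per the labels all animals were perfused with fixative before dissection, while the paper gives that step under histology and not under RNA extraction. Replicates carried only a library number, so each p-value measures the spread between such samples.

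Oxidative phosphorylation passes electrons from NADH and succinate along 4 complexes of the inner mitochondrial membrane to oxygen, and the ATP synthase, complex V, uses the resulting proton gradient to make ATP. Complex I oxidises NADH, complex II (succinate dehydrogenase) joins the chain to the citric acid cycle, complex III is the cytochrome bc1 complex and complex IV is cytochrome c oxidase. All but complex II combine nuclear-encoded subunits with some encoded by mitochondrial DNA, and hippocampal neurons depend heavily on this pathway for synaptic work. The 13 mitochondrially encoded subunits were not analysed here. The rule also takes in Atp5s and Atp5sl, which are not synthase subunits (the annotation used here names Atp5sl Dmac2), and Ndufa4, which was first assigned to complex I and is now regarded as part of complex IV.

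Libraries held 14183131 to 22463635 counts, and the members took 1.09% to 1.62% of them. CPM values are counts scaled to a common library total. Acss2 itself stood at 49.2 to 54.6 CPM in male WT PBS and 3.14 to 4.17 CPM in male KO PBS, and at 4.98 to 8.81 CPM in female KO Tau, so the labels and the targeted gene went together. Markers set several libraries apart. Male KO Tau 711 summed to 6733 CPM over 8 astrocyte genes against 3462 to 4298 CPM in the other male libraries, and the female libraries summed to 7040 to 7653 CPM. Male KO Tau 713 held 5381 CPM of 12 choroid plexus genes, and female WT Tau 331 had 12030 CPM over 9 oligodendrocyte genes. Male KO PBS 752 had 770 CPM over 8 striatal genes. Over 8 CA1 genes it had 445 CPM, near female WT Tau 331 at 411 CPM and female KO Tau 325 at 458 CPM. Over 9 thalamic genes, female WT Tau 331 and female KO Tau 324 had 594 and 599 CPM, against 150 to 283.5 CPM in the male libraries. The part of these markers in the results below was not tested, and in bulk tissue fewer cells of a type cannot be told apart from less RNA per cell.

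Expression per length separated abundant subunits from paralogues kept at trace levels. Levels are given as TPM, counts divided by transcript length and rescaled to a common total, which allows genes to be compared. Cox4i1, the general isoform of the largest nuclear-encoded complex IV subunit, was the most abundant member at a mean of 2245 TPM over the 17 libraries. Atp5b, the catalytic beta subunit of the synthase, followed at 1973 TPM and led complex V. Ndufa4 led the genes grouped with complex I at 971 TPM, Uqcrh, the hinge protein of complex III, led that complex at 823 TPM, and Sdha, the flavoprotein of succinate dehydrogenase, led complex II at 485 TPM. The median over members at 1 TPM or more was 281 TPM in complex I, 239.9 TPM in complex II, 452 TPM in complex III, 334 TPM in complex IV and 467 TPM in complex V. Among the core subunits that carry the redox centres of complex I, Ndufs1 stood at 160.1 TPM and Ndufv1 at 323 TPM. At the low end were Sdhc, a membrane anchor of complex II, at 80.7 TPM, Uqcrfs1, the Rieske iron-sulphur protein, at 254 TPM, and Atp5s at 28.4 TPM.

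Ndufs5 and Cox8c were listed at 0 counts in every library, and 0 counts allow up to 3 counts, or 0.212 CPM, in the shallowest one. Ndufs5 encodes a subunit of complex I found in all tissues, so a value of 0 is a property of these counts and no level can be read from it. Reads shared with near-identical copies or overlapping genes can be lost to either gene, and the annotation names 2 pseudogenes each for Atp5l and Uqcrh, so the levels of both, 76.7 TPM for Atp5l included, are uncertain. On the same strand, Cox4i1 overlaps Gm20388, Ndufa13 overlaps Yjefn3 and Atp5o overlaps a second gene entry of the same name. Further members with a same-strand overlap include Ndufb2, Ndufb8, Ndufb9 and Ndufc2. Overlaps on the opposite strand are not given here.

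Members differed in how steady they were. The smallest coefficients of variation were 4.75% for Sdha, 4.85% for Ndufa9, 5.55% for Uqcrfs1, 6.82% for Atp5b and 9.84% for Cox5b, each the steadiest of its complex. The largest were 31.8% for Ndufb4 at 34.4 TPM in complex I, 12.2% for Sdhd, 23.9% for Uqcrh and 31.8% for Atp5e, with 78.6% for the trace-level Cox7b2 in complex IV. Of the 82 members with counts, 48 had their highest TPM in female WT Tau 331 and 24 their lowest in female KO Tau 314.

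Complex IV has tissue-specific paralogues, and in hippocampus the general forms made up nearly all transcripts. Cox4i1 supplied 99.8% of Cox4i1 plus Cox4i2 by TPM, Cox6a1 98.7% of its pair, Cox6b1 98.3%, Cox7b 99.6% and Cox8a 99.7% of the 3 Cox8 genes. Cox7a2 took 69.6% of its group, with 29.1% for Cox7a2l, a supercomplex assembly factor of similar sequence, and 1.26% for Cox7a1, the heart and muscle form. The c-ring of the synthase is encoded by 3 genes whose mature proteins are the same: Atp5g3 supplied 73.4%, Atp5g1 21.9% and Atp5g2 4.72%. Atp5g3 had its highest share in the female groups, 75.9% in female WT Tau and 77.1% in female KO Tau, against 71.1% to 73.3% in the male groups. Ndufa4 supplied 99.4% of Ndufa4 plus Ndufa4l2, the latter a hypoxia-responsive relative.

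Among the trace-level paralogues, Cox4i2 and Cox6a2 did not order the groups. Cox4i2, the oxygen-sensitive isoform known from lung and vessel wall, had 1.64, 1.34 and 0.955 CPM in male WT PBS, 0.954, 1.64 and 0.886 CPM in male WT Tau, and 0.710, 0.725 and 1.37 CPM in male KO PBS. It had 0.820, 1.41 and 1.13 CPM in male KO Tau mice, 1.62 and 0.623 CPM in female WT Tau and 0.917, 0.820 and 1.80 CPM in female KO Tau. All 6 groups overlapped. Cox6a2, the heart and muscle isoform that is also known from parvalbumin interneurons, was closely grouped in male WT PBS at 4.11, 4.24 and 4.30 CPM. It ranged from 2.18 to 6.77 CPM in male KO PBS and from 2.04 to 7.45 CPM in female KO Tau, so its spread within those groups exceeded any difference between means. Over the 17 libraries and 15473 genes, the genes most like Cox6a2 by Pearson's r of log2 CPM were Cdk5 (0.878), Avpi1 (0.869), Srxn1 (0.860), Ccdc136 (0.859) and Tango2 (0.856), and over the 8 parvalbumin interneuron genes r ran from -0.000343 for Gad2 to 0.742 for Pvalb. Those most like Cox4i2 were Myoc (0.795), Fbln2 (0.793), Pik3ip1 (0.786), Abhd14a (0.776) and 2610035D17Rik (0.774), while over the 12 pericyte and smooth muscle genes r ran from -0.274 for Cspg4 to 0.562 for Vtn. These values describe 17 libraries that share depth and dissection differences and carry no test.

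Cox8b, the muscle and brown fat form, reached 1.93 CPM in male KO Tau 713, the library rich in choroid plexus genes, against 0.820 and 0.261 CPM in the other male KO Tau libraries. Cox7a1 was 4.17 CPM in female WT Tau 331 and 2.43 CPM or less in each of the other 16 libraries. Cox7b2 fell between 0 and 0.809 CPM. None of the 7 trace-level paralogues was called in any comparison, although Cox7a1 was called between the sexes (female against male Tau) when female KO Tau 314 or female WT Tau 341 was left out, at 0.78 and 0.82 (log2).

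**Figure D1:**
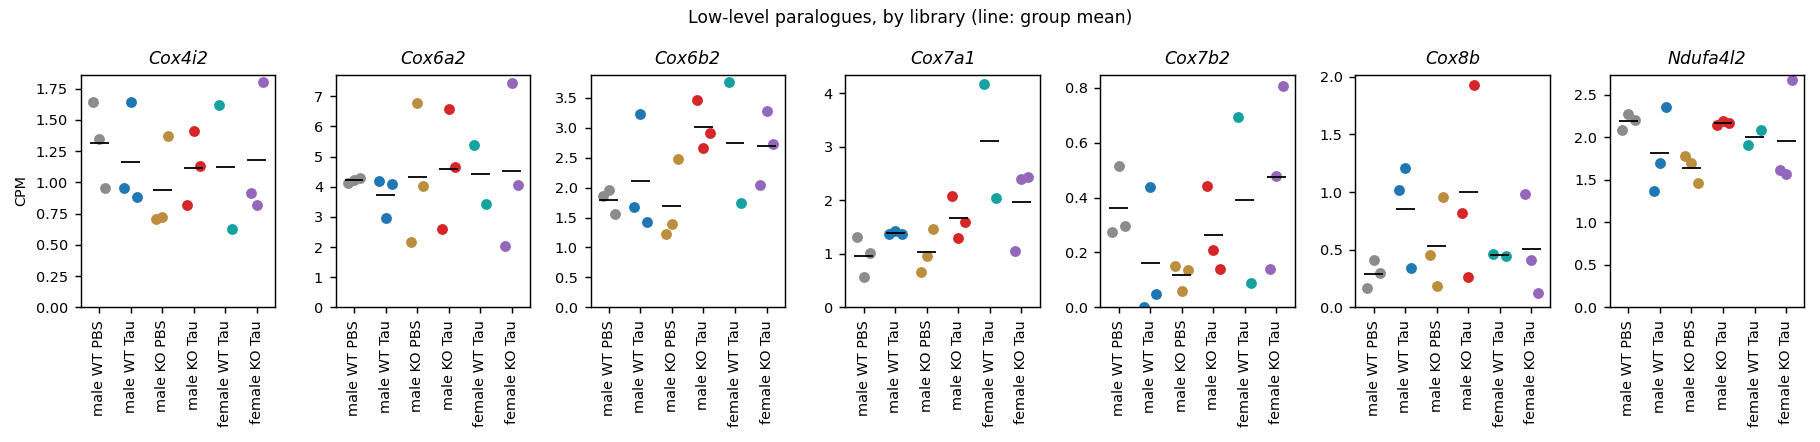
CPM of 7 low-level paralogues in each library, grouped on the horizontal axis, with each point a library and each line a group mean. All 6 groups overlap for Cox4i2, and Cox7a1 peaks at 4.17 CPM in 1 female WT Tau library.

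Summed over each complex, male WT PBS and male KO PBS lay together and male KO Tau stood higher for complexes I, III and IV. The complex I sum was 3322 ± 67.7 CPM (SD, n = 3) for male WT PBS and 3324 ± 144 CPM (n = 3) for male KO PBS. Under tau it was 3470 ± 208 CPM (n = 3) for male WT mice and 3741 ± 200.5 CPM (n = 3) for male KO mice. The 3 male KO Tau libraries, at 3916, 3786 and 3522 CPM, lay above the highest male WT PBS library at 3388 CPM. For complex III the male KO Tau mean was 1195 ± 36.6 CPM (n = 3) against 1104 ± 22.1 CPM (n = 3) in male WT PBS, and the libraries did not overlap. Without the most abundant member of complex III they did, with a lowest male KO Tau sum of 976 CPM and a highest male WT PBS sum of 981 CPM. The complex IV sums of male KO Tau were 3076, 2418 and 2358 CPM and those of male WT PBS 2126, 2052 and 2155 CPM. Library 711 set the height of that group, and both other male KO Tau libraries lay just below male WT Tau 771 at 2424 CPM.

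Complex II did not separate male KO Tau from male WT PBS, and for complex V this depended on the scale. The complex II sums of male KO Tau were 825, 948 and 880.3 CPM and those of male WT PBS 848, 833 and 878 CPM. For complex V they were 4212, 4732 and 4358 CPM and 4170.2, 4083 and 4297 CPM. In both complexes these ranges overlapped. In TPM the complex V ranges did not overlap, at 8760 to 9461 for male KO Tau and 8284 to 8665 for male WT PBS, nor did they in CPM without the most abundant member, at 2816 to 3059 and 2628 to 2792. The sums carry no test.

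Female libraries spread widely around high means. Complex I summed to 5033 and 3793 CPM in female WT Tau and to 3169, 3748 and 4524 CPM in female KO Tau, so the female groups overlapped and female KO Tau also overlapped male WT PBS. Complex IV was the only complex in which both female groups lay wholly above male WT PBS, with 3489 and 2533 CPM in female WT Tau and 2334, 2646 and 3045 CPM in female KO Tau. As a share of all members' counts, complex IV took 19.9% to 21.5% in the female libraries and 23.3% in male KO Tau 711, against 17.9% to 19.2% in the other 11 male libraries. Complex V took 31.9% to 34.2% in the female libraries, 31.9% in library 711 and 35.4% to 36.4% in the other male libraries.

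**Figure D2:**
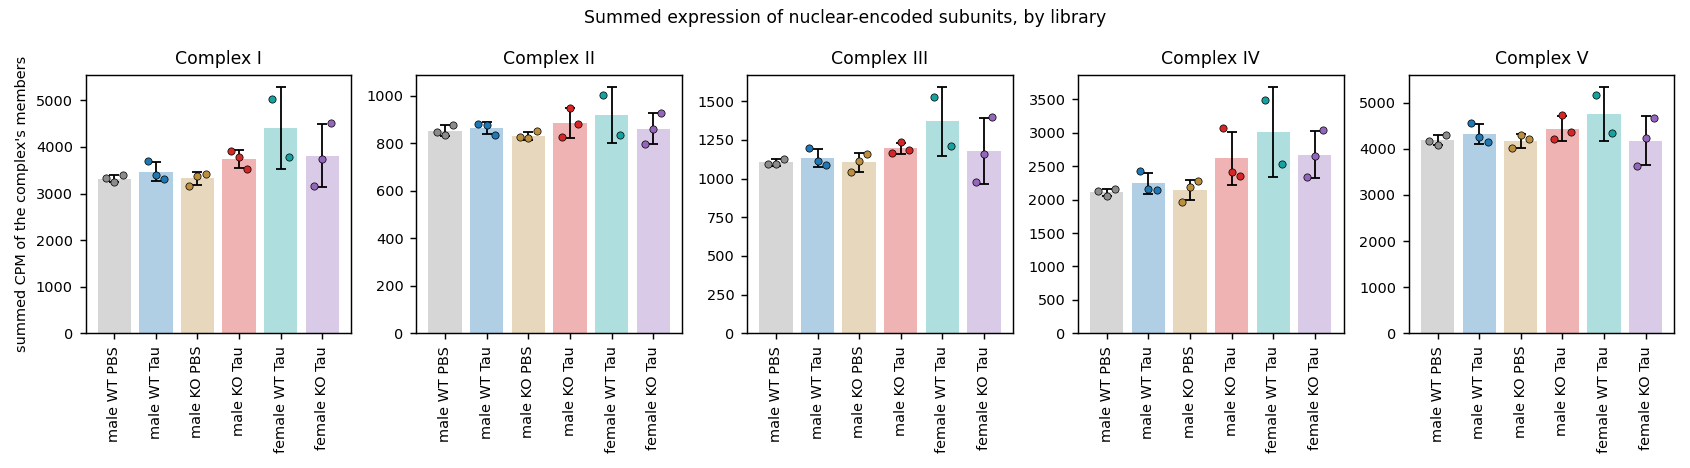
Summed CPM of the members of each complex (vertical axis) in 6 groups, with a point for each library, a bar for the group mean and an error bar for 1 SD. Male WT PBS and male KO PBS overlap in all 5 panels, and the complex IV sum of male KO Tau is led by library 711 at 3076 CPM.

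Tau injection in WT males and loss of Acss2 in PBS-injected males were each tested against male WT PBS. Tests used edgeR's quasi-likelihood F-test over all genes with Benjamini-Hochberg adjustment, and a gene was called at an adjusted p under 0.05. In male WT Tau 63 of the 81 members tested were estimated higher, with a median log2 fold change of 0.06 (quartiles 0.01 and 0.12) beside -0.01 over all 15098 genes. Over all genes under 400 coding bases it was also 0.06. Without male WT Tau 771 the members' median was 0.0070, with 47 of 81 members higher. No member was called and none had an unadjusted p under 0.05, where 0.0% and 1.86% of all genes did. The lowest p-values belonged to Uqcrb, a small complex III subunit, at 0.21 ± 0.11 (log2 fold change ± SE), Cox8b at 1.49 ± 0.80 and Ndufa5 at 0.20 ± 0.12 among those higher, and to Ndufa4l2 at -0.28 ± 0.22, Atp5g2 at -0.16 ± 0.15 and Atp5sl at -0.10 ± 0.11 among those lower. In male KO PBS 59 of 81 members were estimated higher, with a median of 0.05 beside 0.01 over all genes, and the median was 0.027 without male KO PBS 753 and 0.080 without male WT PBS 793. Again no member was called and none had an unadjusted p under 0.05, against 0.00662% and 4.42% of all genes. Leading values were Uqcr11 at 0.23 ± 0.12, Ndufa6 at 0.16 ± 0.10 and Ndufv3 at 0.12 ± 0.08, and Cox7a2l at -0.19 ± 0.11, Ndufa4l2 at -0.36 ± 0.22 and Ndufc1 at -0.15 ± 0.11. DESeq2 called 0 members in both comparisons and gave 0 an unadjusted p under 0.05, and voom with quality weights called 0 and gave 3 and 1.

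The double condition, male KO Tau against male WT PBS, gave the broadest shift among males without a single member passing the test. Of the 81 members 76 were estimated higher, with a median log2 fold change of 0.20 (quartiles 0.08 and 0.30), while the median of all genes tested was 0.00. Over all 677 genes under 400 coding bases the median was 0.13. Of these 677 genes 512 were higher, 110 of them with an unadjusted p under 0.05. By complex the medians were 0.21 for complex I, 0.05 for II, 0.24 for III, 0.28 for IV and 0.10 for V. With an unadjusted p under 0.05 were 36 members, all higher, where 6.33% of all genes passed that level and 3.52% were higher. No member was called in this edgeR fit, and 0.00662% of all genes were, which is Acss2 alone. The share of all genes called depended on the method and on the libraries kept, as given below. The paper gives a smaller KO tau group for this comparison and reports many more genes than Acss2 by DESeq2. The smallest adjusted p of a member was 0.78 by edgeR. DESeq2 also called 0 members and gave 37 an unadjusted p under 0.05, and voom called 0 and gave 31. In 40 of 81 members every male KO Tau library lay above every male WT PBS library in CPM, as did 6.29% of all genes.

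The leading members were Ndufs6, Ndufa2 and Atp5e. Ndufs6, a zinc-binding complex I subunit, had 49.8, 49.2 and 53.2 CPM in male WT PBS and 71.0, 68.1 and 58.2 CPM in male KO Tau, a log2 fold change of 0.38 ± 0.10 (SE). Ndufa2 went from 57.1, 54.1 and 58.3 CPM to 77.2, 68.8 and 64.8 CPM (0.32 ± 0.09). Atp5e, the epsilon subunit of the synthase's F1 head, went from 78.5, 73.3 and 77.1 CPM to 126, 94.8 and 88.1 CPM (0.44 ± 0.13). For all 3 genes the groups did not overlap, and library 711 was the highest of the male KO Tau libraries. Cox4i1 had 550.0, 541 and 557 CPM under WT PBS and 838, 666 and 651 CPM in male KO Tau (0.40 ± 0.12).

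Among the members estimated lower in the same comparison were Cox4i2 at -0.22 ± 0.36, Ndufa10 at -0.06 ± 0.09 and Ndufs1, the largest complex I subunit, at -0.03 ± 0.10. Atp5a1, the alpha subunit of F1, stood at 0.00 ± 0.10, Atp5b at 0.06 ± 0.10 and Atp5c1 at 0.04 ± 0.08. For Atp5a1 the mean joined 926 CPM in library 711 with 1183 and 1108 CPM in 712 and 713. Complex II members ran from 0.05 for Sdhd and Sdhb to 0.10 for Sdhc, with Sdha at 0.06. Uqcrc1 and Uqcrc2, the core proteins of complex III, were 0.03 and -0.01, and Uqcrfs1 was 0.05. The 7 core subunits of complex I had a median of 0.11 and none had an unadjusted p under 0.05, against a median of 0.24 and 15 of 29 for its other members. Without library 711 the count with an unadjusted p under 0.05 fell from 36 to 17 members and the median to 0.14, while all genes went from 6.33% to 10.7%, and Ndufs1 and Ndufa10 moved to 0.06 and 0.02. The count was 18 without male WT PBS 791 and 16 without male WT PBS 792. DESeq2 on only these groups without library 711 called 4 members (Atp5e, Atp5j, Cox4i1 and Ndufa6) beside 5.33% of all genes. The paper does not name the libraries in its smaller KO tau group, so whether it left out library 711 is not known. All 8 astrocyte genes were counted, with sums of 3755 to 4113 CPM in male WT PBS and 3462 to 6733 CPM in male KO Tau, and their part in these values was not tested.

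Against male WT Tau, male KO Tau had 72 of 81 members estimated higher (median 0.13, all genes 0.01, all genes under 400 coding bases 0.08). No member was called by edgeR, DESeq2 or voom, where edgeR called 0.00662% of all genes. An unadjusted p under 0.05 was reached by 15 members, all higher, beside 4.71% of all genes and 2.32% higher. DESeq2 gave 16 members and voom 14 at that level. Ndufa13 led at 0.34 ± 0.10, with 142, 135 and 126 CPM in male WT Tau and 186, 162 and 152 CPM in male KO Tau, followed by Ndufb7 at 0.32 ± 0.09 and Ndufa2 at 0.29 ± 0.09. Atp5s at -0.15 ± 0.13, Atp5c1 at -0.07 ± 0.08 and Ndufa10 at -0.05 ± 0.09 were the leading values below 0. The libraries did not overlap for 10 members, all higher, and for 3.85% of all genes in that direction. Without library 711 the count at an unadjusted p under 0.05 was 8 members beside 13.7% of all genes, and DESeq2 on only these groups called 2, Ndufv1 and Uqcrc1, beside 7.13%. The count was 8 without any 1 of the male WT PBS libraries and 4 without male WT Tau 772 or 773, and without male WT Tau 771 the median was 0.20.

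Against male KO PBS, 75 of 81 members were higher in male KO Tau (median 0.16, all genes 0.00, all genes under 400 coding bases 0.14). Complex IV again had the highest median, 0.26. No member was called by edgeR, DESeq2 or voom, and 0.0% of all genes were by edgeR. An unadjusted p under 0.05 was reached by 20 members, all higher, beside 7.95% of all genes and 3.54% higher. DESeq2 gave 19 members at that level and voom 1. Atp5e led at 0.41 ± 0.13, then Atp5h, a peripheral stalk subunit, at 0.31 ± 0.10 and Ndufs6 at 0.31 ± 0.10, and below 0 were Ndufs1 at -0.12 ± 0.10, Ndufa10 at -0.07 ± 0.09 and Atp5a1 at -0.07 ± 0.10. The libraries did not overlap for 27 members, all higher, against 6.16% of all genes in that direction. Without library 711 the median was 0.093 and the count at an unadjusted p under 0.05 was 5 members beside 11.5% of all genes. Without male KO PBS 751 they were 0.10 and 6 members, and without male KO Tau 713 the count was 31. These 3 comparisons share the male KO Tau libraries.

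The test of whether tau and genotype combined beyond their separate differences called no member. In this interaction 62 of 81 members had values above 0 (median 0.09, all genes 0.00, all genes under 400 coding bases 0.08). The median was 0.024 without male KO Tau 711, 0.054 without male WT Tau 773 and 0.14 without male KO Tau 713 or male WT Tau 771. There were 0 members at an unadjusted p under 0.05 by edgeR, 0 by DESeq2 and 1 by voom, where edgeR gave 4.18% of all genes at that level and called 0.0%. Ndufa4l2 led at 0.63 ± 0.32, followed by Cox7a2l at 0.31 ± 0.16 and Cox6b1 at 0.21 ± 0.12, while Ndufs1 at -0.14 ± 0.14, Atp5s at -0.12 ± 0.19 and Cox8b at -0.65 ± 1.07 were below 0. A larger difference under tau in KO than in WT males was therefore not shown for any member.

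**Figure D3:**
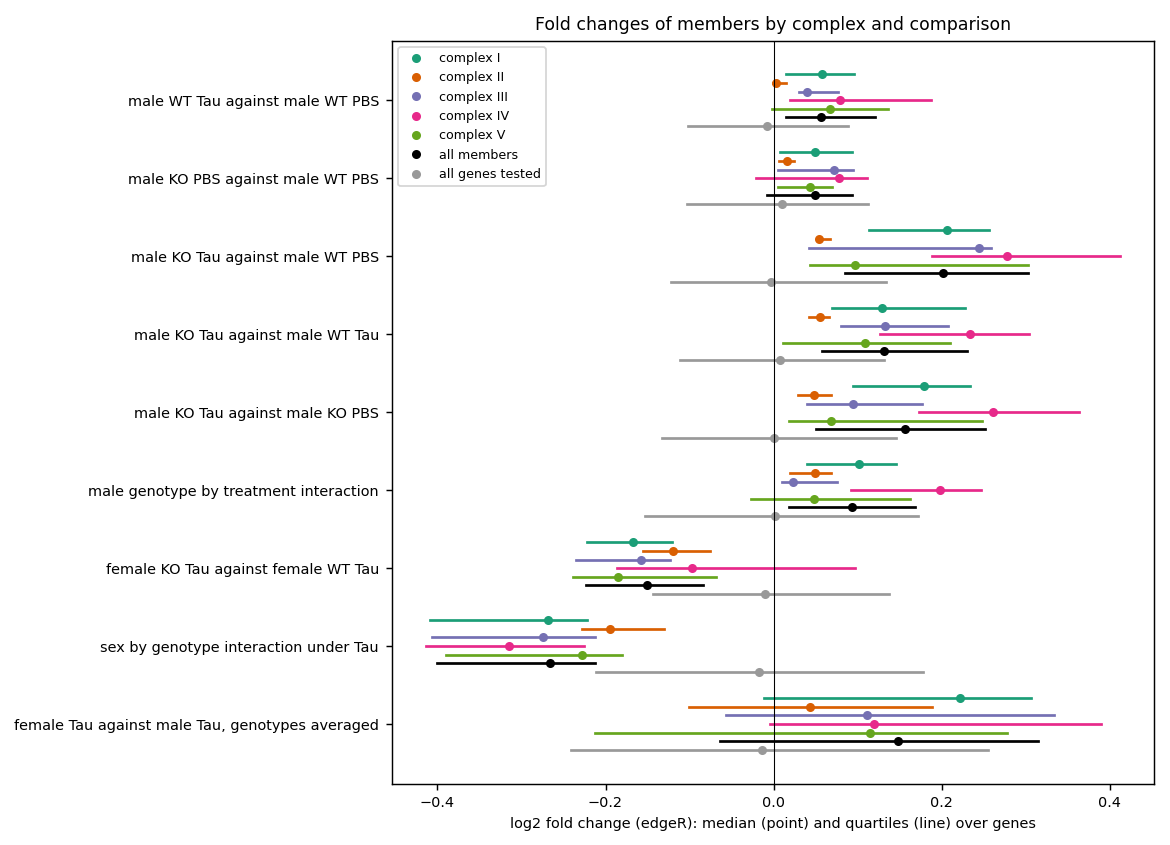
Median log2 fold change (point) and quartiles (line) of the members of each complex, of all members and of all genes tested, in 9 comparisons from edgeR. All members have a median of 0.20 between male KO Tau and male WT PBS and of -0.15 in female KO Tau against female WT Tau, where the gene-wide medians are near 0. All genes under 400 coding bases, not drawn, have medians of 0.13 and -0.11 in these comparisons.

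In females under tau the members leaned the other way between genotypes. Of 82 members tested 71 were estimated lower in female KO Tau than in female WT Tau, with a median of -0.15 beside -0.01 over 15419 genes. No member was called by edgeR, DESeq2 or voom, and edgeR called 0.00649% of all genes. Atp5g1 alone had an unadjusted p under 0.05 (-0.29 ± 0.11), where 2.89% of all genes did and 1.59% were lower. DESeq2 gave 1 member and voom 3 at that level. Ndufa12 at -0.43 ± 0.20 and Atp5o, the oligomycin-sensitivity subunit, at -0.28 ± 0.14 came next, and Cox7a2l at 0.15 ± 0.18, Cox7b2 at 0.42 ± 1.01 and Cox4i2 at 0.15 ± 0.49 led above 0. The lean rested on female WT Tau 331. Without that library 41 of 82 members were higher and the median was 0.00, and without female WT Tau 341 it was -0.34.

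The genotype difference under tau was then compared between the sexes in 1 fit. The sex by genotype term was below 0 for 79 of 82 members, with a median of -0.27 beside -0.02 over all genes. Over all genes under 400 coding bases it was below 0 for 522 of 694, with a median of -0.19. No member was called, 6 had an unadjusted p under 0.05, all below 0, and DESeq2 and voom called 0 with 9 and 12 at that level. Over all genes edgeR called 0.0% and gave 2.94% an unadjusted p under 0.05, with 1.25% below 0. Ndufa13 at -0.51 ± 0.18, Ndufb7 at -0.50 ± 0.20 and Ndufs8 at -0.46 ± 0.18 led, and only Atp5s, Cox4i2 and Cox7a2l had estimates above 0. Without female WT Tau 331 the median was -0.09 and no member had an unadjusted p under 0.05, and without female WT Tau 341 they were -0.46 and 19 members. A difference between the sexes in the genotype response was thus not shown for any member.

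Female Tau against male Tau, with the genotypes averaged, was the only one of the 9 comparisons in which edgeR called members. Sex here cannot be told apart from the library number series, since the female libraries carry numbers from 314 to 341 and the male libraries from 711 to 793. Markers of other cells moved with it, and their part was not tested. All 8 astrocyte genes were counted, and their sum ran from 7040 to 7653 CPM in the female and from 3462 to 6733 CPM in the male Tau libraries. The 8 endothelial genes, all counted, summed to 294 to 425 CPM against 198 to 318 CPM. Of the 82 members 13 were called, beside 23.8% of all genes. Of these 6 rose and 7 fell, where 11.4% of all genes rose and 12.4% fell. An unadjusted p under 0.05 was reached by 35 members, 26 higher and 9 lower, beside 39.8% of all genes, 19.0% higher and 20.8% lower. The median over members was 0.15, beside -0.01 over all genes and 0.18 over all genes under 400 coding bases. Over members it was 0.043 without female WT Tau 331 and 0.24 without female WT Tau 341. In CPM no member separated all 5 female from all 6 male Tau libraries in either direction, while 6.76% of all genes did so upward and 3.77% downward.

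Within the F1 head of the ATP synthase, Atp5a1 and Atp5d were called lower and Atp5e higher. Atp5a1, the alpha subunit, had 1119, 1079 and 1057 CPM in male WT Tau, 926, 1183 and 1108 CPM in male KO Tau mice, 933 and 924 CPM in female WT Tau and 838, 892 and 885 CPM in female KO Tau. It fell by 0.33 (log2, SE 0.09, adjusted p = 0.031 by edgeR's quasi-likelihood test with Benjamini-Hochberg adjustment), and library 711, at 926 CPM, was the 1 male library within the female range. Atp5e had 94.0, 83.7 and 79.0 CPM in male WT Tau, 126, 94.8 and 88.1 CPM in male KO Tau mice, 175 and 115 CPM in female WT Tau and 96.4, 167 and 175 CPM in female KO Tau. It rose by 0.56 (SE 0.16, adjusted p = 0.031 by edgeR), again with library 711 inside the female range. Atp5d, the delta subunit, fell by 0.31 (SE 0.09, adjusted p = 0.025 by edgeR), whereas Atp5b at -0.15 ± 0.10 and Atp5c1, the gamma subunit, at 0.14 ± 0.08 were not called.

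In the membrane part of the synthase, Atp5k (subunit e) rose by 0.51 (SE 0.14) and Atp5j2 (subunit f) by 0.48 (SE 0.15), and the c-ring gene Atp5g1 fell by 0.25 (SE 0.08). Its paralogues Atp5g2 at -0.21 ± 0.13 and Atp5g3 at 0.04 ± 0.10 were not called. Atp5k had 77.2, 64.2 and 65.4 CPM in male WT Tau and 145 and 101 CPM in female WT Tau, and 83.8, 81.3 and 70.3 CPM in male KO Tau mice and 74.9, 88.1 and 133 CPM in female KO Tau. The WT groups did not overlap and the KO groups did.

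In complex I 5 of 36 members were called, 1 higher and 4 lower, beside 23.8% of all genes, 11.4% higher and 12.4% lower. Of the 4 that fell, 3 were core subunits of the matrix arm. Ndufs7, which holds the last iron-sulphur cluster before ubiquinone, had 94.2, 80.5 and 83.7 CPM in male WT Tau, 84.3, 97.5 and 95.7 CPM in male KO Tau mice, 87.1 and 68.6 CPM in female WT Tau and 51.8, 68.0 and 73.3 CPM in female KO Tau. It fell by 0.40 (SE 0.10, adjusted p = 0.017 by edgeR). Ndufv1, the NADH-binding subunit, fell by 0.32 (SE 0.08) and Ndufs3, a subunit of the same arm, by 0.30 (SE 0.09), as did the accessory subunit Ndufa10 by 0.33 (SE 0.08). Among the core subunits that were not called, Ndufs1 stood at -0.01 ± 0.08, Ndufs8 at 0.11 ± 0.09 and Ndufv2 at 0.29 ± 0.13. Ndufb3, a small membrane arm subunit, rose by 0.38 (SE 0.11). The median of the 7 core subunits was -0.17 and that of the 29 other complex I members 0.24.

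In the remaining complexes, Uqcrh of complex III rose by 0.44 (SE 0.15, adjusted p = 0.050 by edgeR) and Cox6c of complex IV by 0.52 (SE 0.15, adjusted p = 0.033). Uqcrc1 at -0.27 ± 0.10, Uqcrc2 at -0.07 ± 0.09 and Uqcrfs1 at -0.05 ± 0.08 were not called, and neither were Cox5a at 0.01 ± 0.10 and Cox5b at -0.07 ± 0.10, subunits that dock on the catalytic core of complex IV. In complex II no gene was called, with Sdha at -0.12 ± 0.08, Sdhb at -0.09 ± 0.09, Sdhc at 0.18 ± 0.09 and Sdhd at 0.22 ± 0.10.

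The count of called members depended on single libraries. It was 1 without female WT Tau 331, when Ndufs7 remained, 2 to 5 without female KO Tau 325, male KO Tau 712 or 713, or any male WT Tau library, and 8 without female KO Tau 324. It was 20 without female KO Tau 314 or female WT Tau 341, and 33 without male KO Tau 711. Ndufs7 was called in all 18 settings run, Ndufa10 in 17, and Atp5k and Ndufv1 in 13 each. Of the F1 genes, Atp5d was called in 10 settings, Atp5e in 9 and Atp5a1 in 7. Without library 711 the CPM values of Atp5e, Cox6c, Ndufb3, Ndufb9 and Ndufs4 lay higher in every female than in every male Tau library (5 of 82 members beside 12.6% of all genes), and those of Atp5a1, Ndufa10, Ndufs3 and Ndufv1 lower (4 of 82 beside 11.2%).

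The 6 called members that rose have 52 to 104 codons and the 7 that fell 136 to 553. Atp5e has 52 codons and Uqcrh 89, while Ndufv1 has 464 and Atp5a1 553. Over 75 members, without the 7 trace-level paralogues, Pearson's r between the female against male log2 fold change and log2 coding length was -0.62, and between male KO Tau and male WT PBS it was -0.72. With the paralogues included these were -0.47 over 82 members and -0.51 over 81. Over the genes outside the list the same values were -0.09 for 14509 genes and -0.13 for 14265. The genes share their libraries and differ in base composition, so these values are descriptions and carry no p.

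**Figure D4:**
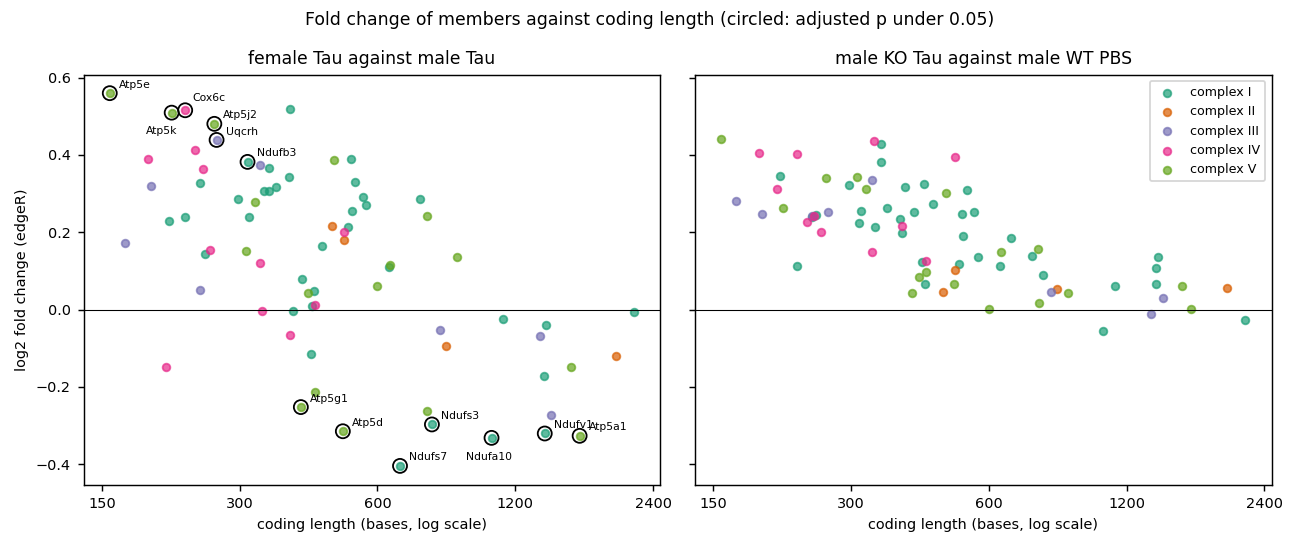
Log2 fold change of 75 members (vertical axis) against coding length in bases (log axis), coloured by complex, for female against male Tau and for male KO Tau against male WT PBS, with genes of adjusted p under 0.05 circled and the 7 trace-level paralogues left out. The 6 called genes above 0 have short coding sequences, and in both panels values fall from left to right.

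The length split was seen library by library. Members under 400 coding bases (39 genes) and from 900 coding bases (11 genes) were set against the male WT PBS mean in log2 CPM, with bounds that were chosen after the values were seen. In female WT Tau the medians of the short group were 0.85 in library 331 and 0.37 in 341 and those of the long group 0.11 and -0.12. In female KO Tau the short group stood at 0.14, 0.42 and 0.79 in libraries 314, 324 and 325 and the long group at -0.31, -0.16 and -0.06. Male KO Tau 711 had 0.44 and -0.13, whereas 712 had 0.20 and 0.14 and 713 had 0.12 and 0.06. The difference between the groups was 0.45 to 0.85 in the 5 female libraries, 0.57 in library 711 and -0.04 to 0.18 in the other 11 male libraries.

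The same direction was present outside the list and was smaller there in each of these 6 libraries, which had the widest differences among members. Over 638 other genes under 400 coding bases and 10603 from 900, the difference was 0.06 to 0.56 in the female libraries and 0.24 in library 711. In the other male libraries the order varied, with 0.06 for members and 0.16 for other genes in male KO Tau 712, and 0.18 and 0.17 in male WT Tau 771. Cytosolic ribosomal protein genes, which also encode short proteins, had medians over 85 genes of 0.31 to 0.91 in the female libraries, 0.60 in library 711 and -0.22 to 0.20 in the other male libraries. In the fit with offsets for transcript length and GC content, the members' median in female against male Tau was -0.04 and 10 members were called, all lower, among them Ndufs7, Ndufa10, Ndufv1, Ndufs3, Atp5a1, Atp5d and Atp5g1. None of the 6 that rose was called in that fit. Between male KO Tau and male WT PBS the median with these offsets was 0.10, with 62 of 81 members above 0.

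**Figure D5:**
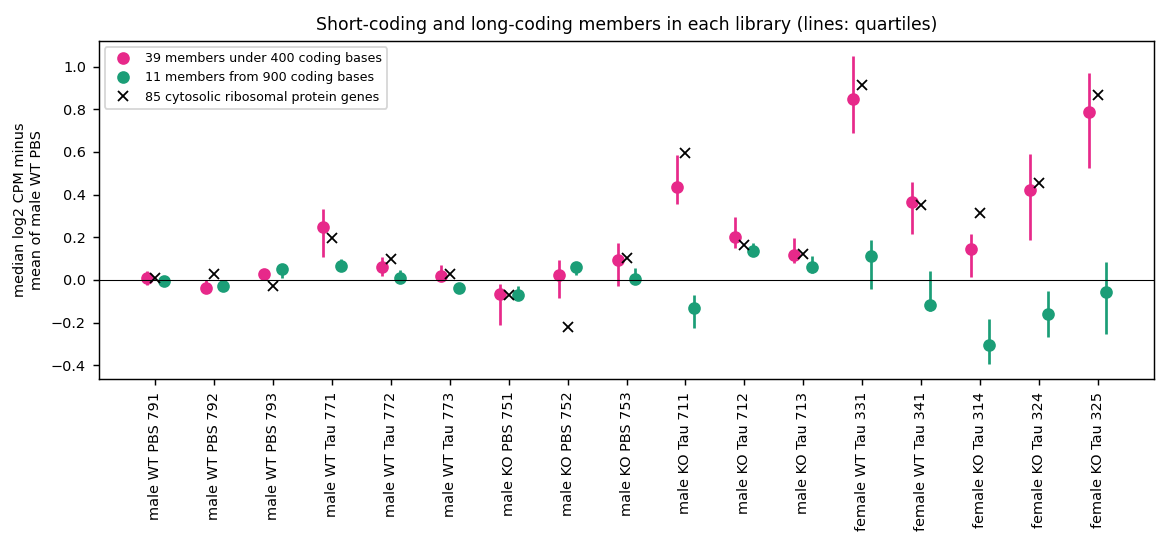
Median log2 CPM minus the male WT PBS mean (vertical axis) in each of 17 libraries for short-coding members, long-coding members and cytosolic ribosomal protein genes, with lines for quartiles of the members. The 2 member groups part in the female libraries and in male KO Tau 711, where they stand at 0.44 and -0.13.

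The start regions of called members were read to show what lies upstream of genes that went opposite ways. RefSeq windows from 250 bases before to 50 bases after the start were matched by symbol for 66 of 84 members. Both strands were searched for NRF1 (CGCANGCG), ETS factors such as GABPA (CCGGAAG), YY1 (AAGATGGC) and CRE (TGACGTCA), motifs of factors known to drive respiratory genes or cyclic AMP responses. The stretches shown lie upstream of the start and outside every annotated exon, in the direction of transcription (GRCm38.p6), at chr2:174464106-174464265 on the minus strand for Atp5e, chr4:116075072-116075231 on the minus strand for Uqcrh, chr19:4012807-4012966 on the minus strand for Ndufv1 and chr11:96075671-96075830 on the minus strand for Atp5g1. Capitals mark the ETS letters, here on the opposite strand.
Atp5e: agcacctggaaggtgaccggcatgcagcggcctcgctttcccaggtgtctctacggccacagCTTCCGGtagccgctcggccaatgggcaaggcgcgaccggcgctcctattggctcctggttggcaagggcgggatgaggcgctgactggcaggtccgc
Uqcrh: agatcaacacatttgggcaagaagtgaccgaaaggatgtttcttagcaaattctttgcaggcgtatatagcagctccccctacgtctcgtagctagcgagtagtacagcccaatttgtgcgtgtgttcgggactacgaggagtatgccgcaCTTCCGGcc
Ndufv1: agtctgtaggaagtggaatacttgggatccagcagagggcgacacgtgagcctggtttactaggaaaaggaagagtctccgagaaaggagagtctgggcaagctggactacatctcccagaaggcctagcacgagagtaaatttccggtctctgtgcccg
Atp5g1: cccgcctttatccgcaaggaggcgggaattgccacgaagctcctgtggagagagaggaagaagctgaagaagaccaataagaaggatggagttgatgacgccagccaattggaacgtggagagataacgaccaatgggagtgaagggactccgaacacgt

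The stretches of Atp5e and Uqcrh, which rose, hold the ETS letters, and those of Ndufv1 and Atp5g1, which fell, hold none of the 4 motifs, but the other called genes did not keep to that contrast. Among those that rose, the window of Ndufb3 holds none, that of Atp5k the NRF1 and ETS letters and that of Atp5j2 the YY1 letters. Among those that fell, the window of Ndufs3 holds the ETS letters, that of Ndufa10 the CRE letters, that of Ndufs7 the YY1 letters and 1 of the windows of Atp5d the NRF1 letters. The NRF1 letters were found in 25 of 66 member windows (37.9%), in 17.6% of the windows of tested genes and in 9.22% of all windows. The ETS letters were in 24.2%, 17.3% and 9.93%, the YY1 letters in 13.6%, 4.62% and 3.19%, and the CRE letters in 6.06%, 3.44% and 2.03%. Before the start alone the NRF1 letters were in 27.3% of member windows, 14.6% of those of tested genes and 7.65% of all windows. For the YY1 letters these shares were 1.52%, 2.18% and 1.83%. A match is a description of letters, not of binding.

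Transcripts of Gabpa and Nrf1, whose motifs were among those searched, and of other regulators of mitochondrial biogenesis were measured as well. Gabpa, an ETS factor of respiratory genes, rose in female against male Tau (0.44 ± 0.11, adjusted p = 0.020 by edgeR) and was 0.06 ± 0.15 between male KO Tau and male WT PBS. Nrf1 was -0.18 ± 0.08 and -0.15 ± 0.12 in these comparisons, Tfam, the mitochondrial transcription factor, 0.22 ± 0.09 and 0.07 ± 0.10, Esrra -0.19 ± 0.10 and 0.27 ± 0.13, and Ppargc1a, the coactivator of mitochondrial biogenesis, -0.04 ± 0.08 and -0.02 ± 0.13, none of them called. Of the 16 biogenesis regulators tested, 2 rose (Gabpa and Gabpb2) and 1 fell (Polrmt) between the sexes, beside 23.8% of all genes called, and none was called in the male comparisons.

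Related mitochondrial genes were called in both directions in female against male Tau, where 11.4% of all genes rose and 12.4% fell, and no list was compared with the rest by a test. Of 13 further respiratory chain genes, 1 of which (Ndufa4l2) is also a member, 4 rose, namely Usmg5, a small synthase-associated protein, at 0.56 ± 0.18, and the electron transfer flavoprotein genes Etfa, Etfb and Etfdh at 0.47, 0.38 and 0.23, while Higd2a fell by 0.31. Of 42 assembly factors tested 7 rose, including the copper chaperone Cox17 at 0.56 ± 0.14 and Ndufaf4 at 0.42 ± 0.10, and 3 fell, including Cox10, which makes haem for complex IV, by 0.47. Of 17 genes of pyruvate dehydrogenase and the citric acid cycle 4 fell (Idh3g, Ogdh, Dlst and Mdh2, by 0.26 to 0.46) and Suclg2 rose by 0.86. Of 77 mitochondrial ribosomal protein genes 6 rose and 5 fell, and of 79 cytosolic ones 19 rose and none fell. Between male KO Tau and male WT PBS no gene of these lists was called, and the medians were 0.12 for the further chain genes, 0.06 for assembly factors, -0.04 for the citric acid cycle list, 0.07 for mitochondrial and 0.33 for cytosolic ribosomal proteins.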

How the data were processed

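Dorsal hippocampal poly(A) RNA of 17 mice was sequenced, and the deposited table gives whole-number counts per gene symbol. Per the study's methods, the authors aligned reads to mm10 with STAR and counted them with HTSeq in its reverse-stranded mode, and the submitters' processing notes list STAR 2.5.2, SAMtools 1.1 and HTSeq 0.9.1. The library kit named in the labels is not a directional one, so reads of a gene and of an antisense neighbour cannot be told apart. The annotation release was not given in the sources used here, and HTSeq leaves out reads that match several places, which lowers genes with near-identical copies. All 17 columns were mapped to groups by their labels. Totals were 14183131 to 22463635 counts, which with 2 or 3 libraries a group limits the precision.

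Symbols were matched to GENCODE vM21 on GRCm38 (98.5% found), and TPM used the shortest principal transcript. Counts were fitted with edgeR 4.0.16 (R 4.3.3, TMM scaling, filterByExpr with a minimum count of 10, quasi-likelihood F-test) over 12 male libraries (15098 genes) and 11 Tau libraries (15419 genes), with Benjamini-Hochberg adjustment over all genes and a threshold of 0.05. SE is the absolute log2 fold change divided by the square root of F. On simulated data for the 4-group male fit, comparing male KO Tau with male WT PBS over 14998 genes, 20.0% of genes changed 1.5-fold, 57.1% changed 2-fold and 90.0% changed 4-fold were recovered, with 4 false calls.

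In each comparison the 3 members higher and the 3 lower with the smallest p were named, with every called member and, per complex, the highest, lowest, most variable and steadiest. Members, gene lists and tests were chosen with earlier results of these data known. Genes named beyond that rule, the coding-length classes and the overlap counts without library 711 were chosen after seeing the data. Alternatives were DESeq2 1.42.0, voom with quality weights (limma 3.58.1), RLE size factors, no expression filter, offsets for transcript length and GC content, other sets of libraries and leaving out each replicate. The values of 1 member are not reported here.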

Additional observations from a re-analysis of the deposited data

How the results depend on the processing

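No paired analysis was possible because the groups share no replicate numbers. Called members between female and male Tau numbered 13, with 20 by DESeq2, 26 in a fit of all 17 libraries, 31 by voom, and 1 (without female WT Tau 331) to 33 (without male KO Tau 711) when a replicate was left out. In the male comparisons 0 members were called except by DESeq2 on only the groups compared without male KO Tau 711, so that the range was 0 to 4 against male WT PBS and 0 to 2 against male WT Tau. With length and GC offsets the median log2 fold change was 0.096 for male KO Tau against WT PBS, -0.0040 against KO PBS, -0.0060 in the male interaction and -0.037 for female against male Tau. The sex by genotype median ran from -0.46 to -0.088 when a replicate was left out. For Ndufs1, male KO Tau against male WT PBS, the value was 0.030 by voom and 0.00181 with offsets, and -0.084 to 0.063 with a replicate left out, and Ndufa10 was -0.14 to 0.020. On TMM-scaled CPM the mean male KO PBS sums were 3475 for complex I, 870 for II and 4364 for V. Those of male WT PBS were 3348, 859 and 4215 on that scale, and the ranges overlapped. In CPM without its most abundant member, the complex II ratio of female WT Tau to male WT PBS was 1.23. The cause of these shifts was not tested. Depth limited the 7 trace-level paralogues. Leave-one-out fits on only the groups compared were not run for the interactions and the sex comparison.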
